A study of Mus musculus with 15 samples.

Results

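Cholesterol synthesis enzymes were followed through 8 genes that the study's count files hold, Hmgcs1, Mvd, Idi1, Fdps, Fdft1, Sqle, Lss and Cyp51, out of 39179 genes listed there. They were chosen by name, as enzymes of the sterol pathway, and each of the 8 was counted in all 15 mice and passed the filter on low counts in every comparison. RNA came from quadriceps muscle of C57BL/6 mice that were wild-type or homozygous for Mrps5 V338Y, a single amino acid exchange in a protein of the mitochondrial ribosome that raises the error rate of mitochondrial translation. The 3 mo groups held 4 mice of each genotype, and the 19 mo groups 3 wild-type and 4 V338Y mice, all without any treatment. The knock-in allele is present in every cell of the animal, so a difference between genotypes cannot be assigned to the muscle fibre alone. Whole muscle was sequenced, and fewer cells of a type and less RNA per cell cannot be told apart in it. The question was whether the sterol enzymes moved with genotype or age, and whether they moved with the genes of fatty acid synthesis (lipogenic genes).

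Nearly all nucleated cells of a mammal can build cholesterol from acetyl-CoA. Hmgcs1 joins acetyl-CoA units at the head of the pathway, Mvd and Idi1 turn mevalonate into active isoprene units, and Fdps condenses these to farnesyl diphosphate, from which ubiquinone, dolichol and prenylated proteins also branch off. Fdft1 commits farnesyl diphosphate to squalene, Sqle oxidises squalene, Lss closes the rings to lanosterol, and Cyp51 removes the first methyl group from lanosterol. When membrane sterol is low, the transcription factor SREBP-2 (gene Srebf2) is carried by Scap out of the endoplasmic reticulum, cut by the proteases Mbtps1 and Mbtps2, and binds sterol regulatory elements in front of these genes, usually beside sites for NF-Y and Sp1. Its relative SREBP-1 (Srebf1) acts mainly on lipogenic genes such as Fasn, the fatty acid synthase.

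The stretch before the start of Hmgcs1 is shown because it alone, of the 5 members whose promoter was found in RefSeq (GRCm38.p6), holds the core letters TCACNCCAC of a sterol regulatory element. That of Mvd is shown beside it because Mvd had some of the lowest correlations with the other enzymes between mice. Capitals mark TCACNCCAC, CCAAT (NF-Y) and GGGCGG (Sp1), each searched on both strands, in the 250 bases before the start.
Hmgcs1, chr13:119690101-119690350, plus strand: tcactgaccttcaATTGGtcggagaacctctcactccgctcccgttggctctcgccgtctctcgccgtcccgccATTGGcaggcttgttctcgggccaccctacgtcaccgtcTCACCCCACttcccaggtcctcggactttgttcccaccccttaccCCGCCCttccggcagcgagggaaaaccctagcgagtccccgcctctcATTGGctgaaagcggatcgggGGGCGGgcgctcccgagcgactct
Mvd, chr8:122443423-122443672, minus strand: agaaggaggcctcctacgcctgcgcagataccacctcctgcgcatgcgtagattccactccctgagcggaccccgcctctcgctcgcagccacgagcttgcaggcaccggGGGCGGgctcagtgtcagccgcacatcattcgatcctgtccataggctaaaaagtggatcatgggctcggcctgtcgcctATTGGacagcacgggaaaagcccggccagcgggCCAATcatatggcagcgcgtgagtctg
The sterol element core of Hmgcs1 began 137 bases before its start. It was found in 1 of the 5 promoters, against 1.05% of 32851 mouse promoters of this length. Cyp51, Lss and Idi1 lacked this core, as Mvd did. Their correlation with Hmgcs1 between mice of a group (Pearson's r) was 0.88, 0.75 and 0.62, against -0.09 for Mvd. A link between the core and these correlations was not tested. CCAAT and GGGCGG were each found in 5 of 5, against 33.8% and 32.7% of all promoters. These are matches of letters, and no binding was measured. The RefSeq set used here did not give a promoter for Fdps, Fdft1 or Sqle.

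Per kilobase of exon, Fdft1 and Hmgcs1 were the most counted members, with medians over the 15 mice of 8.28 CPM per kilobase each (CPM, counts scaled to a library of common size). Fdps followed at 3.36, Mvd at 1.80 and Cyp51 at 1.53 CPM per kilobase, and Lss, Idi1 and Sqle were lowest at 0.577, 0.514 and 0.217 CPM per kilobase. Exon length was taken over all annotated transcripts, 10787 bases for Lss and 4415 for Cyp51, so the low place of Lss depends on it. The ranges of neighbours in this order overlapped, except those of Hmgcs1 (from 5.56 CPM per kilobase) and Fdps (up to 4.29 CPM per kilobase). Sqle rested on 10 to 95 counts per mouse and Idi1 on 11 to 40, so the values of these genes carry the largest counting error. Fdft1 shares 774 exon bases with Ctsb on the opposite strand, Lss 381 with 4930483K19Rik and Cyp51 166 with Akap9. Whether the counting used strand is not given in the sources used here, and reads of these stretches may belong to either gene.

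Totals ran from 8250653 to 18968132 counts per mouse. Group means are given ± SD, over n = 3 in 19 mo wild-type and n = 4 in the other groups. At 3 mo Mrps5 itself averaged 23.7 CPM in wild-type mice (SD 1.83) and 25.7 CPM in mutants (SD 1.50). The 19 mo averages were 17.7 CPM (SD 1.79) and 17.4 CPM (SD 1.64). Counts do not show the exchanged codon. The ages differed in sex-linked transcripts, although the methods describe the mice of 3 groups as female. Levels of Xist did not exceed 0.575 CPM at 3 mo but reached 506 to 631 CPM at 19 mo. The Y-linked Ddx3y showed the opposite order, with 163 to 202 CPM at 3 mo and no value above 0.0827 CPM at 19 mo. These are the levels of male mice at 3 mo and of female mice at 19 mo, in both genotypes. Age and this difference in sex cannot be told apart in any comparison of 19 mo with 3 mo. One 19 mo V338Y mouse, mouse 5, stood apart in neutrophil markers, whose summed level ran from 2.81 to 560 CPM in that group against 2.37 to 4.63 CPM in 19 mo wild-type mice.

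The upper enzymes gave the following levels. Hmgcs1 (ENSMUSG00000093930, chromosome 13 from 119690379 to 119708260, plus strand, GRCm38) was counted at 55.0, 39.5, 42.1 and 45.3 CPM in the 3 mo wild-type mice 1 to 4 and at 36.6, 38.0, 35.9 and 38.6 CPM in the V338Y mice. At 19 mo Hmgcs1 was at 35.3, 29.0 and 25.6 CPM in wild-type mice 2, 4 and 5, and at 40.6, 39.5, 25.8 and 25.7 CPM in V338Y mice 2 to 5. Every 3 mo V338Y mouse was below every 3 mo wild-type mouse, while at 19 mo the genotypes overlapped and V338Y mice 2 and 3 stood above the rest. Mvd (ENSMUSG00000006517, chromosome 8 from 122433601 to 122443422, minus strand) was at 2.92, 2.41, 4.71 and 3.90 CPM in 3 mo wild-type and 3.97, 2.76, 3.47 and 2.31 CPM in 3 mo V338Y mice. At 19 mo Mvd was at 2.24, 2.67 and 4.05 CPM in wild-type and 4.31, 3.35, 2.31 and 4.44 CPM in V338Y mice. All 4 groups overlapped, and the mice highest for Hmgcs1 at 19 mo were not the highest for Mvd.

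Idi1 (ENSMUSG00000058258, chromosome 13 from 8885501 to 8892451, plus strand) was at 2.37, 2.84, 1.66 and 2.09 CPM in 3 mo wild-type and 2.18, 1.52, 1.90 and 1.38 CPM in 3 mo V338Y mice. At 19 mo it was at 1.80, 1.78 and 1.65 CPM in wild-type and 3.41, 2.15, 1.10 and 1.29 CPM in V338Y mice. The V338Y mice 2 and 3 lay above all 19 mo wild-type mice and the V338Y mice 4 and 5 below them. Fdps (ENSMUSG00000059743, chromosome 3 from 89093588 to 89101959, minus strand) was at 14.1, 11.6, 16.1 and 18.05 CPM in 3 mo wild-type and 16.2, 16.8, 16.2 and 15.4 CPM in 3 mo V338Y mice. At 19 mo Fdps was at 12.6, 10.1 and 9.93 CPM in wild-type and 14.1, 14.5, 9.64 and 8.61 CPM in V338Y mice. All 4 V338Y mice at 19 mo were below all 4 at 3 mo, and within the 19 mo mice the order was again V338Y 2 and 3, then wild-type 2.

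Fdft1 (ENSMUSG00000021273, chromosome 14 from 63145150 to 63179578, minus strand), the first enzyme given over to sterols, was at 36.1, 35.6, 47.8 and 35.0 CPM in 3 mo wild-type and 39.6, 45.7, 62.7 and 40.7 CPM in 3 mo V338Y mice. At 19 mo Fdft1 was at 27.9, 27.0 and 33.9 CPM in wild-type and 29.9, 32.2, 19.7 and 27.5 CPM in V338Y mice. Every 19 mo mouse was below every 3 mo mouse of either genotype. Sqle (ENSMUSG00000022351, chromosome 15 from 59315077 to 59331192, plus strand) was at 1.37, 0.710, 1.46 and 1.54 CPM in 3 mo wild-type and 0.805, 0.953, 0.910 and 1.38 CPM in 3 mo V338Y mice. At 19 mo Sqle was at 3.36, 0.815 and 0.993 CPM in wild-type mice 2, 4 and 5, and at 5.11, 6.37, 1.205 and 0.836 CPM in V338Y mice 2 to 5. Wild-type mouse 2 and V338Y mice 2 and 3 were above all 12 other mice, and the remaining 19 mo mice lay within the range of the 3 mo mice.

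Lss (ENSMUSG00000033105, chromosome 10 from 76531588 to 76557138, plus strand) was at 6.57, 5.11, 6.57 and 4.90 CPM in 3 mo wild-type and 5.63, 6.19, 6.12 and 6.34 CPM in 3 mo V338Y mice. At 19 mo Lss was at 7.90, 6.30 and 6.20 CPM in wild-type and 14.3, 7.71, 6.22 and 5.66 CPM in V338Y mice. V338Y mouse 2 was highest, and the genotypes overlapped at both ages. Cyp51 (ENSMUSG00000001467, chromosome 5 from 4081145 to 4104746, minus strand) was at 6.75, 6.39, 7.36 and 7.35 CPM in 3 mo wild-type and 6.72, 6.67, 7.28 and 7.61 CPM in 3 mo V338Y mice. At 19 mo Cyp51 was at 8.89, 6.52 and 4.55 CPM in wild-type and 13.5, 12.7, 4.82 and 4.82 CPM in V338Y mice. The 8 mice of 3 mo lay within 6.39 and 7.61 CPM, whereas at 19 mo the highest and the lowest V338Y mice were on either side of that range.

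**Figure D1:**
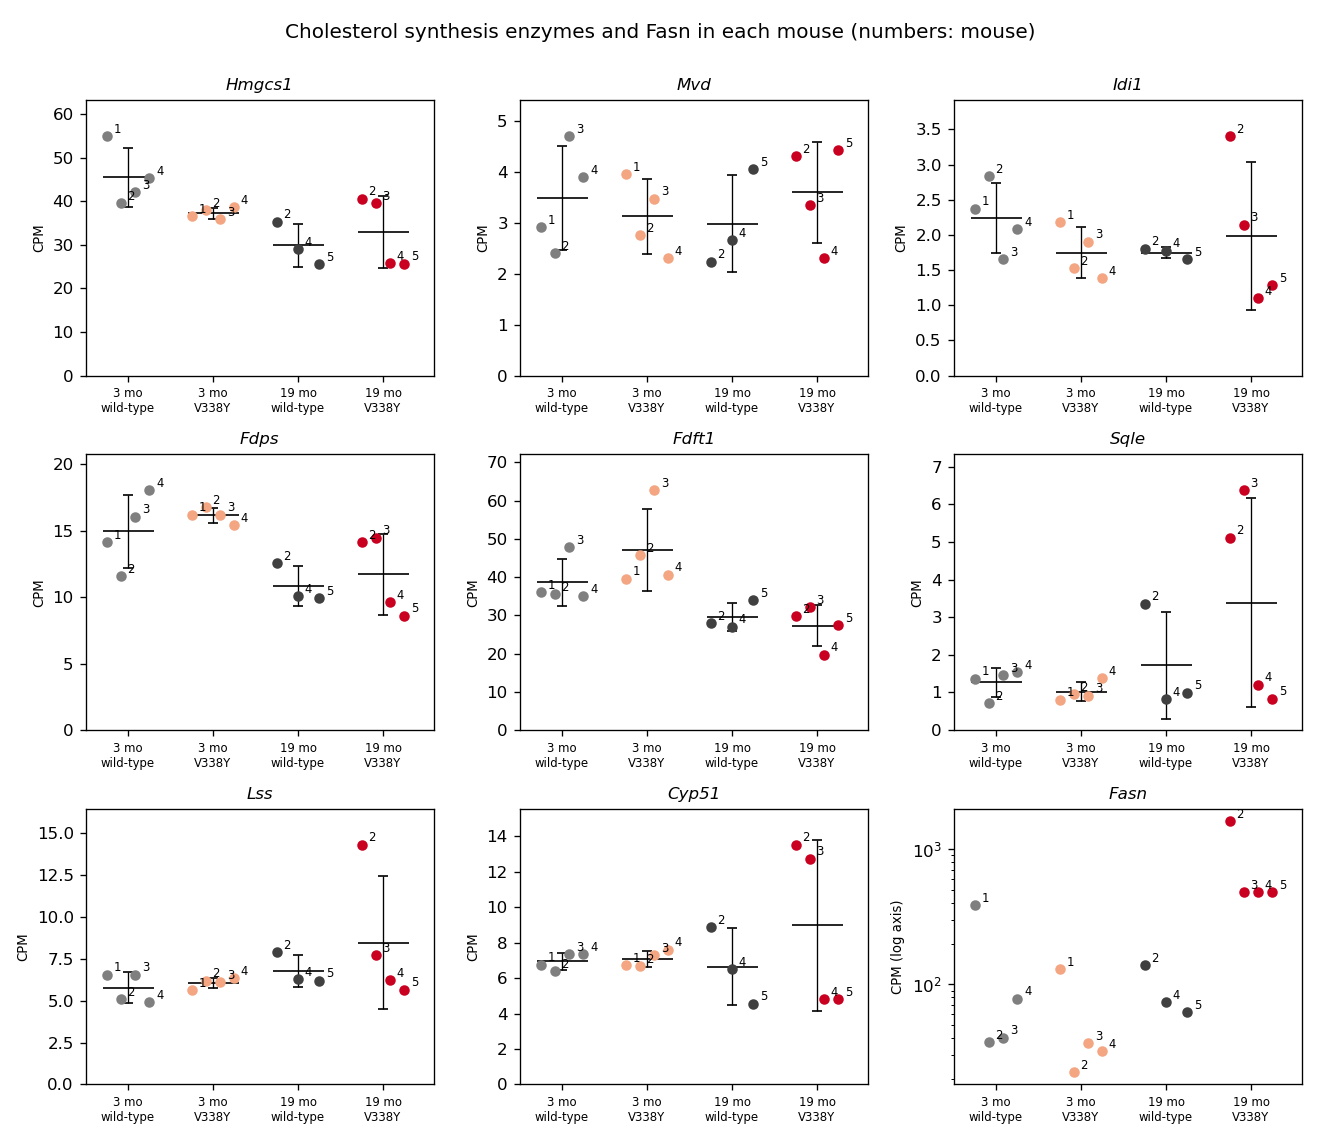
Level in CPM of the 8 sterol enzymes and of Fasn in each mouse, by group, with points numbered by mouse, bars at the group mean and whiskers of 1 SD (Fasn on a log axis, points alone). Sqle stood at 3.36 to 6.37 CPM in wild-type mouse 2 and V338Y mice 2 and 3 of 19 mo, and Fasn at 476 CPM or more in all 4 V338Y mice of 19 mo.

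At 3 mo none of the 8 sterol enzymes differed between V338Y and wild-type mice after adjustment. Of all 13333 genes tested 0.0750% were called (edgeR's quasi-likelihood test, Benjamini-Hochberg adjusted p under 0.05), and 66 genes with DESeq2, none of them a member. Hmgcs1 was the 1 member of 8 with an unadjusted p under 0.05, against 9.70% of all genes. It averaged 37.3 ± 1.26 CPM in V338Y and 45.5 ± 6.77 CPM in wild-type mice, a log2 fold change of -0.28 (SE 0.10, edgeR adjusted p = 0.441). It was also the 1 member lower in every V338Y mouse, as were 2.24% of all genes. Of the 8 members 4 had a positive and 4 a negative log2 fold change, with a median of -0.05, against -0.0026 over all genes.

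The lipogenic list had values below those of wild-type at this age in 14 of 15 genes, with a median log2 fold change of -0.38, and 0 of the 15 were called. Fasn was at 385, 37.5, 40.4 and 78.3 CPM in wild-type and 129, 22.6, 37.0 and 32.2 CPM in V338Y mice, with wild-type mouse 1 highest. The 10 adipocyte markers all had lower values in V338Y mice, with a summed level of 669 to 1126 CPM against 954 to 2111 CPM in wild-type. The part of adipose RNA in these values was not tested. Hmgcs1 was highest in the same wild-type mouse 1 as Fasn.

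At 19 mo 0 of 15 lipogenic genes and 0 of 8 sterol enzymes passed the threshold for genotype, and Fasn and other lipogenic genes had higher values in V338Y mice. Fasn was at 1594, 476, 479 and 477 CPM in V338Y mice 2 to 5 and at 138, 73.9 and 62.4 CPM in wild-type mice, so the groups did not overlap. Its log2 fold change was 3.08 (SE 0.56, edgeR adjusted p = 0.302). It passed the threshold in 3 of 12 alternatives (log2 fold change 2.41 to 3.51, edgeR or DESeq2 adjusted p = 4.35e-04 to 0.854). Among those that passed was the mouse number fitted as a replicate block (log2 fold change 3.09, edgeR adjusted p = 0.00129). The labels do not state that pairing. The list was drawn up with these results known, and its genes include ones the study itself picked on these mice, so its direction is not independent evidence. Of its 15 genes 14 had a positive log2 fold change (median 1.03) and 8 an unadjusted edgeR p under 0.05, against 6.17% of all genes. The same 8 (Acly, Acaca, Fasn, Elovl6, Scd1, Slc25a1, Pcx and Thrsp) were higher in every V338Y mouse, as were 4.51% of all genes. The count at an unadjusted p under 0.05 was 11 without V338Y mouse 5, the mouse high in neutrophil markers, 11 without wild-type mouse 2 and 8 without V338Y mouse 2, and 0 genes of the list passed after adjustment in these fits. Of the 10 adipocyte markers 9 also had a positive log2 fold change (median 1.09), 3 of them with an unadjusted edgeR p under 0.05, and their summed level ran from 552 to 2041 CPM in V338Y and from 539 to 1200 CPM in wild-type mice. The part of adipose RNA in the lipogenic values was not tested.

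None of the 8 sterol enzymes was called at 19 mo, and 0 had an unadjusted edgeR p under 0.05. Of all 13833 genes 0.0434% were called and 8.93% had an unadjusted p under 0.05. With DESeq2 the count over all genes was 62 and with the replicate block 110, and 0 members were among them in either fit. All 8 overlapped between the genotypes. Of the 8, 7 had a positive log2 fold change, with a median of 0.25 against 0.01 over all genes, and without V338Y mouse 2 the median was 0.03 and 5 of 8 were positive. The largest difference was that of Sqle, with 3.38 ± 2.78 CPM in V338Y and 1.72 ± 1.42 CPM in wild-type mice, a log2 fold change of 0.96 (SE 0.77, edgeR adjusted p = 0.726). It was 0.44 without V338Y mouse 3 and 1.93 without wild-type mouse 2. Cyp51 differed by 0.45 (SE 0.42, edgeR adjusted p = 0.770) and Lss by 0.33 (SE 0.32, edgeR adjusted p = 0.771). The SE of these members is close to the difference, so changes of this size were not detectable with 3 and 4 mice.

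**Figure D2:**
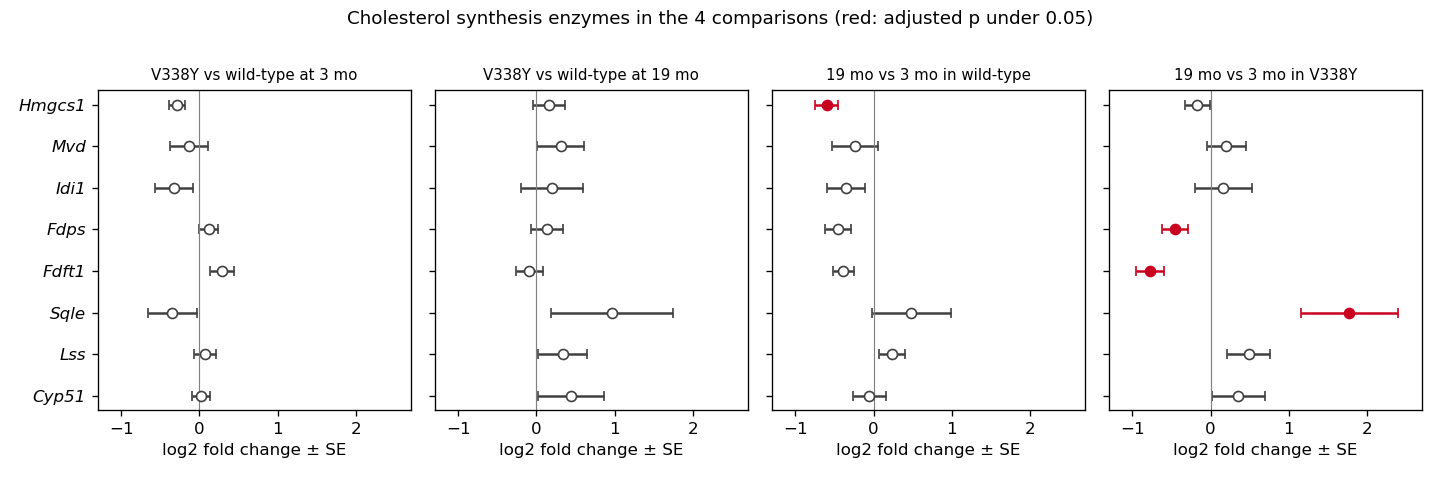
Log2 fold change with its SE (edgeR) of each sterol enzyme, in pathway order, in the 2 comparisons of genotype and the 2 of age; filled red points have an adjusted p under 0.05. No member was called for genotype, Hmgcs1 was called for age in wild-type mice, and Fdps, Fdft1 and Sqle in V338Y mice.

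Age gave 4 calls among the members, 3 of them decreases. Here and below, an effect of age is a difference between 19 mo and 3 mo mice, which also differed in sex-linked transcripts. The part of sex in it cannot be told apart. In wild-type mice Hmgcs1 fell from 45.5 ± 6.77 CPM at 3 mo to 29.9 ± 4.95 CPM at 19 mo, a log2 fold change of -0.60 (SE 0.15, edgeR adjusted p = 0.0124). This call held without any one mouse (edgeR adjusted p = 0.00723 to 0.0461). Fitting the replicate block ended it (log2 fold change -0.39, edgeR adjusted p = 0.132). In wild-type mice only the numbers 2 and 4 occur at both ages, so the block compared these mice alone. Same-numbered mice of the 2 ages are different animals, and their residuals correlated at 0.0048 and 0.016. The lost call is therefore no test of the result in all mice of these groups. In wild-type mice 1 of 8 members was called lower, where 17.8% of the 13657 genes tested were called lower, and 0 of 8 higher, where 18.3% were called higher. Hmgcs1 and Fdft1 were lower in every 19 mo wild-type mouse, 2 of 8 members, against 21.7% of all genes. Fdft1 differed by -0.38 (SE 0.14, edgeR adjusted p = 0.0567) and Fdps by -0.45 (SE 0.16, edgeR adjusted p = 0.0561), both just outside the threshold. With DESeq2 Fdft1 was called as well (adjusted p = 0.0421), and Fdps and Fdft1 without the filter on low counts (edgeR adjusted p = 0.0394 and 0.0403).

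In V338Y mice Fdft1 fell from 47.2 ± 10.7 CPM at 3 mo to 27.3 ± 5.43 CPM at 19 mo, a log2 fold change of -0.78 (SE 0.18, edgeR adjusted p = 0.00699). Fdps fell from 16.2 ± 0.545 CPM to 11.7 ± 3.02 CPM, by 0.45 on the log2 scale (SE 0.17, edgeR adjusted p = 0.0467). Sqle rose from 1.01 ± 0.255 CPM to 3.38 ± 2.78 CPM, a log2 fold change of 1.77 (SE 0.62, edgeR adjusted p = 0.0400), although mice 4 and 5 of 19 mo lay within the range of the 3 mo mice. The 2 decreases stand against 22.5% of 13868 genes called lower, and the 1 increase against 24.4% called higher. Fdps and Fdft1, 2 of 8, were lower in every 19 mo V338Y mouse, as were 21.9% of all genes. These shares of members are near those of all genes. The calls of Sqle and Fdps did not outlast single mice. Sqle lost its call without V338Y mouse 2 of 19 mo (edgeR adjusted p = 0.0952), without mouse 3 of 19 mo (edgeR adjusted p = 0.126) and without any one of the 4 mice of 3 mo (edgeR adjusted p = 0.0590 to 0.0954). Fdps lost it without mouse 4 or 5 of 19 mo (edgeR adjusted p = 0.112 and 0.0876) and without any one of the 4 mice of 3 mo (edgeR adjusted p = 0.0762 to 0.0993). Fdft1 kept its call in all 8 of these fits.

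The difference in the effect of age between genotypes was tested as an interaction in all 15 mice. None of the 8 sterol enzymes passed at an adjusted or an unadjusted p under 0.05, where 0.00% and 9.63% of 14128 genes did (edgeR), and DESeq2 called 26 genes but no member. The interaction of Hmgcs1 was 0.42 (SE 0.23, edgeR adjusted p = 0.580) and that of Sqle 1.29 (SE 0.89, edgeR adjusted p = 0.661). An effect of age called in one genotype only was therefore not shown to differ between genotypes.

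Srebf2, the transcription factor gene of the pathway, was higher at 19 mo in every mouse of both genotypes. In the wild-type its mean was 7.73 ± 0.978 CPM at 3 mo and 16.7 ± 3.12 CPM at 19 mo, a log2 fold change of 1.12 (SE 0.15, edgeR adjusted p = 9.33e-04). The mutants had 8.88 ± 1.25 CPM at 3 mo and 18.2 ± 4.45 CPM at 19 mo, a log2 fold change of 1.04 (SE 0.18, edgeR adjusted p = 0.00157). The rise held in all 12 alternatives in wild-type and all 13 in V338Y mice, with an edgeR or DESeq2 adjusted p of at most 0.0142. Among the 8 members 6 had a negative log2 fold change with age in wild-type mice (median -0.29) and 3 in V338Y mice (median 0.18, and -0.052 without V338Y mouse 2 of 19 mo). Of 7 genes of SREBP control, 2 rose in wild-type mice (Srebf2 and Mbtps2) and 2 in V338Y mice (Srebf2 and Scap), and 0 fell. Over all genes 18.3% and 24.4% rose, so that these counts are near those of all genes. Srebf1 did not pass in either, with log2 fold changes of -0.04 (SE 0.15) and -0.25 (SE 0.27).

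Of 13 other enzymes of sterol synthesis, 1 rose and 1 fell with age in wild-type mice and 1 rose and 0 fell in V338Y mice. These shares are below those of all genes, of which 18.3% rose and 17.8% fell in wild-type mice and 24.4% rose and 22.5% fell in V338Y mice. The one that fell was Acat2, which makes acetoacetyl-CoA, from 7.23 ± 3.54 CPM to 3.36 ± 0.810 CPM (log2 fold change -1.09, SE 0.35, edgeR adjusted p = 0.0353). At 3 mo wild-type mouse 1, also highest in Fasn, was at 12.5 CPM, and the other mice of its group at 4.90, 5.44 and 6.08 CPM. The 19 mo wild-type mice ran from 2.52 to 4.14 CPM. For genotype 0 of these 13 passed at either age. In the branch that leads from farnesyl diphosphate to ubiquinone and dolichol, 2 of 6 genes fell with age in wild-type and 2 of 6 in V338Y mice, where 17.8% and 22.5% of all genes fell. Coq2, which attaches the isoprenoid tail of ubiquinone, fell in both, from 48.5 ± 2.28 CPM to 32.1 ± 1.28 CPM in wild-type (log2 fold change -0.59, SE 0.08, edgeR adjusted p = 0.00112) and from 52.7 ± 4.13 CPM to 30.2 ± 3.42 CPM in V338Y mice (log2 fold change -0.79, SE 0.10, edgeR adjusted p = 3.93e-04). Of 6 genes of the oxysterol receptor LXR and its targets, 0 were called in wild-type mice and the 1 called in V338Y mice was Abcg1, a sterol exporter, which rose by 1.04 on the log2 scale (SE 0.35, edgeR adjusted p = 0.0354). Among the lipogenic genes 11 of 15 rose with age in V338Y mice, against 24.4% of all genes, and 2 rose and 1 fell in wild-type mice.

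Between mice of a group Hmgcs1, Fdps, Sqle, Lss and Cyp51 had the higher correlations with each other and Mvd and Fdft1 the lower ones, and no pair passed the threshold after adjustment. After the mean of each group was subtracted, Pearson's r over the 15 mice was 0.92 for Sqle and Cyp51 (Spearman's rho 0.90), 0.89 for Fdps and Sqle (rho 0.87) and 0.88 for Hmgcs1 and Sqle (rho 0.85). Exact permutation of the mice within groups gave unadjusted p = 0.0262, 0.00348 and 0.0210 for r, and 0.00475, 0.00854 and 0.0149 for rho. Of 28 pairs 8 had an unadjusted p of r under 0.05 and 0 an adjusted one, the lowest being 0.0976 for r and 0.101 for rho. The 3 values of r stayed at 0.87, 0.86 and 0.83 without the 2 mice farthest in the first gene of the pair. The group means subtracted were still those of all 15 mice, so differences between groups can enter these 3 values. Mvd had r of -0.02 with Sqle, 0.02 with Cyp51 and -0.09 with Hmgcs1, and 0.60 with Fdft1. The mice share library depth and tissue makeup as well as these genes, and most of the spread came from the 19 mo mice.

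**Figure D3:**
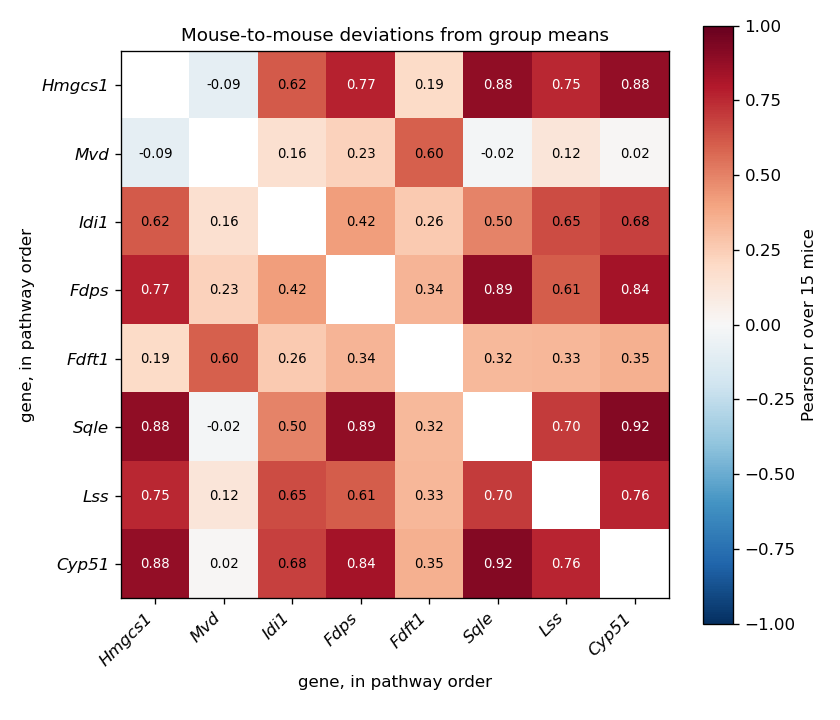
Pearson r between members over the 15 mice, from log2(CPM + 0.5) after the mean of each group was subtracted, with genes in pathway order on both axes. Hmgcs1, Fdps, Sqle, Lss and Cyp51 had r of 0.61 to 0.92 with each other, and Mvd stayed between -0.09 and 0.23 with all members but Fdft1.

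Other genes that followed the members were picked out by their r with the mean of the 8, given as a description. After the group means were subtracted, Nsdhl, which works on sterols after Cyp51, had r of 0.90, Pmvk, which phosphorylates phosphomevalonate, 0.84, and Msmo1, a sterol demethylase, 0.77. Stard4, a carrier of cholesterol between membranes, had r of 0.83, Srebf2 0.78 and Insig1, which holds SREBP back, 0.59. These genes were singled out for their high r. Of the 13 other sterol enzymes 12 had a positive r (median 0.62) and Lbr, a lamin B receptor that is also a sterol reductase, had -0.44. Set against all 14128 genes kept, the r of Pmvk was above that of 99.8% and the r of Insig1 above 94.0%. The lowest positive r of these enzymes, 0.04 for Ebp, was above 53.1% of all genes, and that of Lbr above 13.8%. Among the 7 genes of SREBP control r ran from -0.32 for Mbtps1 to the value of Srebf2, and among 6 genes of cholesterol uptake and storage from -0.64 to 0.83. The highest r among all genes were those of Stoml1 (0.92), Uckl1os (0.91), Nsdhl and Osbpl7 (0.90), the last a sterol-binding protein. Nsdhl shows the pattern in CPM, with 8.82, 5.57, 2.61 and 2.25 in V338Y mice 2 to 5 and 3.79, 2.59 and 2.32 in wild-type mice 2, 4 and 5 of 19 mo. Srebf2 likewise was highest in V338Y mice 2 and 3 and wild-type mouse 2, at 22.8, 21.1 and 20.2 CPM, and between 13.8 and 15.5 CPM in the other 19 mo mice.

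Whether the sterol enzymes followed the lipogenic genes was examined with Fasn. At 3 mo (8 mice) 0 of 8 members had an adjusted p under 0.05. Hmgcs1 came nearest, with Pearson's r 0.73 (exact permutation p = 0.0465, adjusted p = 0.634 over 16 relations) and Spearman's rho 0.52 (exact permutation p = 0.197, adjusted p = 0.808), and its r was 0.77 without the 2 mice farthest in Fasn. These values pool the genotypes. Every V338Y mouse was below every wild-type mouse in Hmgcs1 at this age, so the difference between genotypes can enter this r. At 19 mo Fasn fell into separate clusters by genotype, so that a pooled r has no meaning and the groups are too small for one of their own. The pooled relations of that age are counted among the 16, and none passed after adjustment. Over deviations from the group means in all 15 mice, a test chosen after the data were seen, Hmgcs1 had r 0.58 (exact permutation p = 0.0113, adjusted p = 0.0908 over 8 members) and rho 0.51 (exact permutation p = 0.0525, adjusted p = 0.410). Without the 2 mice farthest in Fasn its r was 0.62. The other 7 members had r between -0.18 and 0.49, and 0 of 8 had an adjusted p under 0.05. Without the same 2 mice r was 0.63 for Lss, 0.54 for Idi1, 0.53 for Cyp51, 0.51 for Fdps and 0.49 for Sqle, values near that of Hmgcs1, and 0.11 for Mvd and 0.02 for Fdft1. The group means subtracted here were still those of all 15 mice. Differences between groups can therefore enter the r without these 2 mice, and no ranking of the members is drawn from it.

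Mouse by mouse at 19 mo, V338Y mice 2 and 3 and wild-type mouse 2 were highest of their genotype in the means of both sets of genes, while across genotypes the sets parted. V338Y mice 3, 4 and 5 had almost the same Fasn (476, 479 and 477 CPM), yet Sqle was at 6.37, 1.205 and 0.836 CPM and Cyp51 at 12.7, 4.82 and 4.82 CPM in them. Wild-type mouse 2 had Fasn at 138 CPM, below every V338Y mouse, and Sqle at 3.36 CPM, above V338Y mice 4 and 5. The mean log2(CPM + 0.5) of the 15 lipogenic genes was 7.09, 6.14, 5.93 and 5.89 in V338Y mice 2 to 5, and that of the 8 sterol enzymes 3.57, 3.39, 2.56 and 2.66. In wild-type mice 2, 4 and 5 the lipogenic means were 5.25, 4.97 and 4.82 and the sterol means 3.08, 2.74 and 2.77. Lipogenic means were thus higher in all V338Y mice, whereas the sterol means of the V338Y mice lay 2 above and 2 below all wild-type mice. Within the lipogenic list the genes differed in their r with the mean of the sterol enzymes, from 0.77 for Acly, which supplies cytosolic acetyl-CoA, 0.74 for Me1 and 0.71 for Scd2, through 0.40 for Fasn, to values below 0 for 3 of the 15 genes, Scd1 (-0.04), Mlxipl (-0.12) and Acacb (-0.41). The r of Acly was above that of 99.3% of all genes kept, that of Fasn above 82.1% and that of Scd1 above 45.9%.

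**Figure D4:**
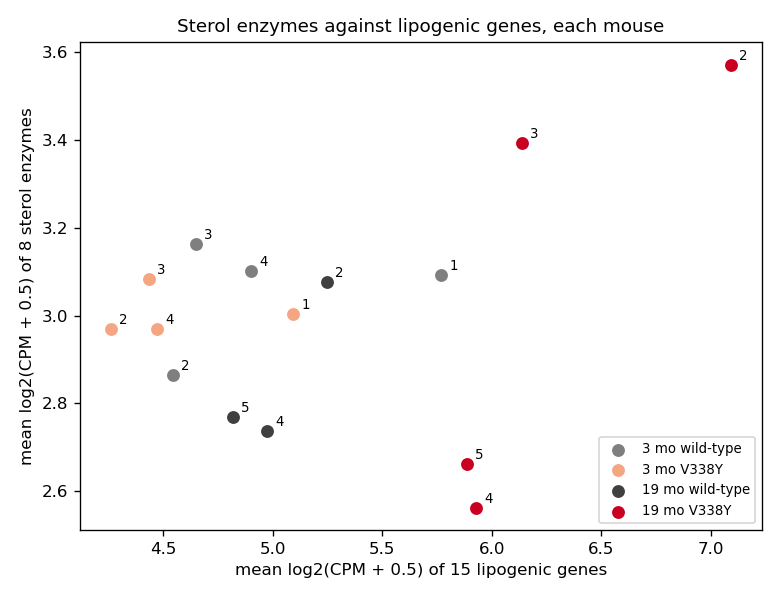
Mean log2(CPM + 0.5) of 15 lipogenic genes (horizontal) and of 8 sterol enzymes (vertical), 1 point per mouse, numbered by mouse and coloured by group. The 4 V338Y mice of 19 mo lay at 5.89 or higher on the lipogenic axis and were spread from 2.56 to 3.57 on the sterol axis.

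Markers of other cell types were set beside the sterol enzymes in the 19 mo mice. The 10 adipocyte markers had a mean log2(CPM + 0.5) of 5.94, 4.81, 6.82 and 5.49 in V338Y mice 2 to 5, highest in mouse 4, which had the lowest sterol mean, and of 4.53, 5.05 and 5.38 in wild-type mice 2, 4 and 5, lowest in mouse 2, which had the highest sterol mean of its genotype. The 6 macrophage markers had means of 5.49, 5.38, 5.32 and 5.01 in V338Y mice, where mice 2 and 3 were highest, as they were for the sterol enzymes. In wild-type mice the macrophage means were 4.93, 5.13 and 5.20, lowest in mouse 2. The 7 Schwann cell markers, of which Mag and Pmp2 were at most 0.84 CPM, had means of 2.01, 1.78, 2.13 and 2.76 in V338Y mice, highest in mouse 5. In wild-type mice 2, 4 and 5 the Schwann cell means were 2.10, 1.89 and 1.78, highest in mouse 2. The 9 muscle fibre markers summed to 163259 to 258286 CPM in V338Y and 225539 to 278224 CPM in wild-type mice of 19 mo, and the 6 macrophage markers to 332 to 384 CPM and 271 to 314 CPM. The neutrophil markers were at 6.10 in V338Y mouse 5 and between -0.15 and 1.90 in V338Y mice 2 to 4. In wild-type mice 2, 4 and 5 they were at -0.10, -0.35 and 0.06. The part of these cells in the levels of the sterol enzymes was not tested.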

How the data were processed

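The measurements are RNA-seq of quadriceps from 15 mice. What the authors deposited is, for every mouse, a table of expected counts that RSEM estimated for Ensembl genes, in whole numbers and scaled neither for depth nor for length. The submitters' processing notes name STAR 2.4.2a, bcl2fastq 1.8.4 and GRCm38. If the deposited counts are those of RSEM, reads shared by paralogs were divided by its estimate. Mice were grouped by the age and genotype in their labels, which give no batch. Nothing in the labels repeats an animal, and 0 of 105 pairs of files were identical. Of 39179 genes, 37607 were matched to a symbol, and some genes of the lists are not reported here.

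Counts were analysed with edgeR 4.0.16 in R 4.3.3. Genes reaching 10 counts in 50% or more of the mice in either group of a comparison were retained, normalized by TMM and compared by the quasi-likelihood test in the 2 groups concerned, or in all 15 mice for the interaction, with Benjamini-Hochberg adjustment over all genes kept and a threshold of 0.05. CPM are counts scaled to the TMM library sizes of all 15 mice. Correlations used log2(CPM + 0.5) and exact two-sided permutation. Exon lengths and positions are from an annotation of GRCm38. The code was tested on simulated counts with known changes.

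The members, lists and tests were chosen with earlier results of these data known. Besides the members, genes were named as Fasn, Mrps5, Xist and Ddx3y, as up to 5 genes of each list with the smallest adjusted p in the comparison described, and as genes of highest r to the members. Nsdhl, Pmvk, Msmo1, Stard4, Insig1, Lbr, Ebp, Mbtps1, Acly, Me1, Scd2, Scd1, Mlxipl and Acacb were named after their r was seen. Myh2 and Myh4 were named after their levels were seen. Mouse numbers are from the labels. At 19 mo the residuals of same-numbered mice correlated at 0.13, 0.24 and 0.40 across genes. Those of V338Y mouse 3 and wild-type mouse 2 correlated at 0.47. The labels state no pairing, so whether the numbers pair these mice is not known. The main fits left the mice unpaired, and the replicate block was run as an alternative. Alternatives were RLE size factors, DESeq2 1.42.0, no filter, 1 fit of all mice, the replicate block, a pseudocount of 2, and fits that omitted 1 mouse at a time. The correlation within groups and the lipogenic count without single mice were added after the data were seen.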

Additional observations from a re-analysis of the deposited data

Results flagged for a closer look

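Fdft1 was at 47.8 CPM in 3 mo wild-type mouse 3, while the other 3 mice of the group lay between 35.0 and 36.1 CPM. It was marked because its distance to the nearest mouse took up most of the range of the group. It was the 1 such value among 24 groups of 4 mice examined (8 members in 3 groups), and chance alone marks about 1 in 20 groups.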

How the results depend on the processing

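RLE size factors and a fit of all 15 mice left every call of the members as it was. The number of all genes called moved from 10 to 66 (DESeq2) and 33 (no filter) for genotype at 3 mo, from 6 to 62 and 14 at 19 mo, and from 0 to 26 and 5 for the interaction. With the replicate block it was 110 at 19 mo, 117 for the interaction and 2229, in place of 4940, for age in wild-type mice. Members called for age in wild-type mice numbered 1, and 2 with DESeq2, 3 with no filter and 0 with the replicate block, where Hmgcs1 had a log2 fold change of -0.39 (edgeR adjusted p = 0.132) and Cyp51 turned to 0.17. In V338Y mice the replicate block ended the call of Fdps (-0.34, edgeR adjusted p = 0.108), and it changed no other call of a member. Only at 19 mo did every same-numbered pair have a residual correlation of 0.13 or more. At 3 mo same-numbered mice correlated between -0.16 and 0.14, and across ages between -0.14 and 0.02. For age the block compared only numbers present at both ages, 2 and 4 in wild-type and 2, 3 and 4 in V338Y mice. Its lost calls for age thus rest on fewer mice. At 19 mo V338Y mouse 3 correlated with wild-type mouse 2 at 0.47, above every same-numbered pair of that age (0.13 to 0.40). Whether the numbers pair these mice is therefore not known.

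With each mouse left out, all genes called ranged from 3 to 14 at 3 mo and 2 to 7 at 19 mo, and members called from 1 to 2 for age in wild-type and 1 to 2 in V338Y mice, below the 3 of all mice. Log2 fold changes that turned sign ranged as follows: at 3 mo Cyp51 from -0.0186 to 0.0509, Mvd from -0.28 to 0.0619 and Lss from -0.00082 to 0.14; at 19 mo Idi1 from -0.17 to 0.38, Lss from -0.0361 to 0.49 and Fdft1 from -0.17 to 0.0323; for age in wild-type mice Sqle from -0.48 to 0.80 and Cyp51 from -0.33 to 0.14; for age in V338Y mice Idi1 from -0.20 to 0.34; for the interaction Lss from -0.11 to 0.43 and Fdps from -0.13 to 0.15. The median of the members ran from -0.098 to 0.056 for genotype at 3 mo and from -0.052 to 0.35 for age in V338Y mice. None of these was a call. Without the 2 mice farthest in Fasn at 3 mo, r turned to 0.24 for Fdps, -0.66 for Lss and 0.35 for Cyp51. The causes were not tested. With 3 or 4 mice a group the p-values rest on few animals, and counts of 10 to 95 for Sqle and 11 to 40 for Idi1 limit the precision of these genes.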
